A study of Gallus gallus with 9 samples.

Results

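A group of 60 long non-coding RNAs (lncRNAs) of the chicken liver kept a similar mean level from the embryo to the adult bird, on a scale relative to each library. They were selected on their own expression values, by 2 conditions on FPKM (fragments counted for a transcript, scaled for its length and for the size of the library). The mean over the 3 libraries of an age had to be at least 2 FPKM at each of the 3 ages, and the mean log2(FPKM + 1) values had to differ by less than 1 in every pair of ages. Of the 4127 lncRNAs listed, 399 reached 2 FPKM at some age, 92 reached it at each age, and 60 of these 92 also met the limit on the differences. The group thus holds 1.45% of the listed lncRNAs and 65.2% of those with at least 2 FPKM throughout. Since the values of all 3 ages chose these lncRNAs, their levels and their differences between ages are given as a description and carry no test.

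Liver RNA came from chicken embryos at embryonic day 13 and from birds aged 5 or 42 weeks, stages that the labels call embryonic, rapid growth, and adult and aged. Each age had 3 libraries labelled as biological replicates, 9 in all, made from total RNA with no treatment named. The labels name no breed, sex, flock or batch, nor whether a replicate is a single bird or a pool. The table is of whole liver, so fewer cells of a type and less RNA per cell cannot be told apart.

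A lncRNA is a transcript with no recognised protein-coding frame. Most are made by RNA polymerase II, and many are capped and spliced like messenger RNAs, but they are usually less abundant and more often limited to a tissue or stage. Some act at the locus that makes them, others bind chromatin or proteins elsewhere in the nucleus or cytoplasm, and for many no role is known. The liver changes its work over the interval studied here, from an organ of the yolk-fed embryo to one that in the growing and adult bird makes most plasma proteins and, in birds, most new fatty acids. The lncRNAs are listed under identifiers that begin with TU, and 0 of the 4127 identifiers matched the reference gene table. No name, position, sequence or function is therefore given for any of them. Liver markers were not checked, because 0 of the 13949 identifiers of protein-coding genes matched it either.

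**Figure D1:**
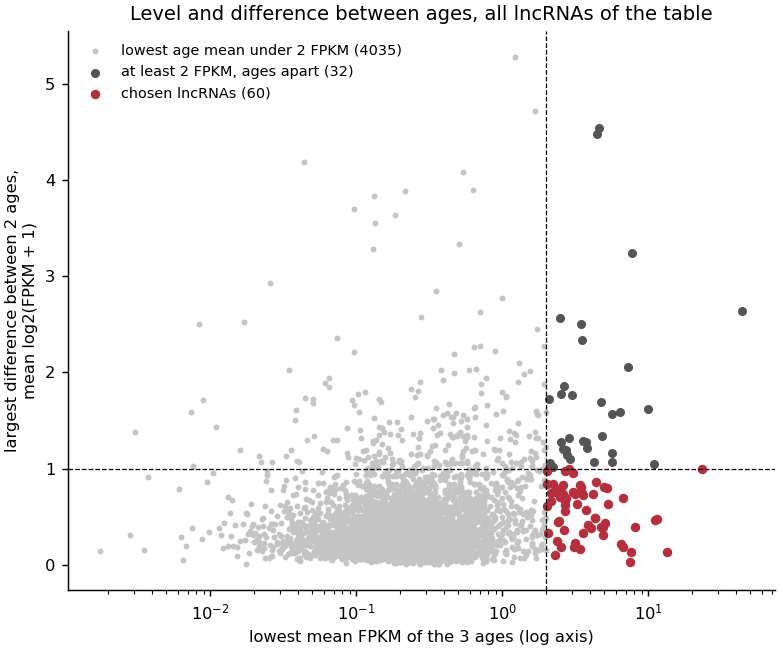
Each point is a lncRNA, with the lowest of its 3 age means in FPKM on a log x axis and the largest difference between 2 ages in mean log2(FPKM + 1) on the y axis; dashed lines mark the limits of 2 FPKM and 1. The 60 chosen lncRNAs (red) fill the lower right corner, next to 32 (dark grey) with at least 2 FPKM at each age but a larger difference.

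The limits cut through a continuous range. TU46211, TU35567 and TU60939 lay just inside the difference limit, with largest differences of 0.995, 0.994 and 0.977 on the log2 scale. Just outside it were TU63055, TU63697 and TU64484, at 1.02, 1.05 and 1.06. At the level minimum, TU51175, TU21671 and TU67965 were just inside, with lowest age means of 2.01, 2.02 and 2.03 FPKM. TU40864, TU59889 and TU811, at 1.99, 1.99 and 1.97 FPKM, were just outside although their ages were close to each other. Of the 60, 11 had a largest difference under 0.25, 16 had 0.25 to 0.5, 16 had 0.5 to 0.75 and 17 had 0.75 to 1. By the ratio of mean FPKM, which has no offset and averages before any log is taken, 13 of the 60 were at least 2-fold apart between their highest and lowest age. The largest such ratio was 2.54, for TU21671, which had 4.19, 3.20 and 3.41 FPKM at day 13, 2.18, 2.77 and 1.10 at 5 weeks and 2.52, 7.41 and 5.42 at 42 weeks.

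Levels were modest. The mean over the 9 libraries ran from 2.43 to 30.0 FPKM, with a median of 4.40 and quartiles of 3.58 and 5.86 FPKM. At each age a mean of at least 5 FPKM was held by 13 of them and a mean of at least 10 FPKM by 4. Ranked among all listed lncRNAs by that 9-library mean, 2 of the 10 most abundant, 16 of the 50 most abundant and 41 of the 100 most abundant belonged to the group. In every single library at least 2 FPKM was found for 40 of the 60, while 20 had at least 1 library below that and 2 had a library under 1 FPKM.

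TU46211 was the most abundant and ranked 7th of all lncRNAs. It had 45.3, 39.004 and 44.4 FPKM in the day 13 libraries, 14.5, 42.1 and 14.8 at 5 weeks and 22.7, 22.5 and 24.7 at 42 weeks. The embryonic libraries were all above the 42-week ones, and the 5-week age was split, with the second library at the embryonic level and the other two below every other library. Without that second 5-week library its largest difference was 1.48, and without the second day 13 library 1.06, so it would not have been chosen in either case. TU37688, ranked 10th, had 16.8, 14.4 and 9.16 FPKM at day 13, 9.09, 15.7 and 16.1 at 5 weeks and 11.2, 10.5 and 25.4 at 42 weeks. Its age means were 13.5 ± 3.92, 13.7 ± 3.95 and 15.7 ± 8.44 FPKM (SD, n = 3 each), and single libraries differed by more than the ages did. TU29066 (rank 12) had 12.9, 11.2 and 12.8 FPKM at day 13, 19.7, 20.3 and 10.9 at 5 weeks and 12.9, 11.02 and 10.6 at 42 weeks, with the first and second 5-week libraries the only ones above 13 FPKM. TU60790 (rank 14) had 10.7, 11.6 and 10.98 FPKM at day 13, 16.4, 12.3 and 19.1 at 5 weeks and 11.6, 7.19 and 16.5 at 42 weeks. Its 5-week libraries were all above the embryonic ones, and its 42-week libraries spanned both.

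The next 8 by level lay between 6.80 and 9.90 FPKM over the 9 libraries. TU33276 had 10.9, 13.5 and 9.64 FPKM at day 13, 5.71, 6.61 and 7.67 at 5 weeks and 8.72, 10.5 and 15.8 at 42 weeks, with all 5-week libraries below all others. TU20721 had 7.72, 8.99 and 7.72 FPKM at day 13, 9.18, 9.80 and 7.21 at 5 weeks and 10.04, 13.1 and 10.1 at 42 weeks, and its 42-week libraries were all above the rest. For TU30337 the values were 8.12, 10.7 and 9.57 FPKM at day 13, 5.48, 5.01 and 4.43 at 5 weeks and 5.32, 7.40 and 7.78 at 42 weeks. Every embryonic library of TU30337 was above every later one. TU39447 had 6.61, 4.82 and 7.73 FPKM at day 13, 7.34, 9.98 and 8.72 at 5 weeks and 4.76, 3.95 and 7.30 at 42 weeks, so that the 42-week libraries were below the 5-week ones and both overlapped the embryonic ones. TU55562 had 7.83, 6.83 and 7.92 FPKM at day 13, 6.33, 9.19 and 6.03 at 5 weeks and 4.57, 6.75 and 8.11 at 42 weeks. In this lncRNA and in the remaining 3 of the 8, TU65719, TU13212 and TU63689, libraries overlapped in every pair of ages.

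**Figure D2:**
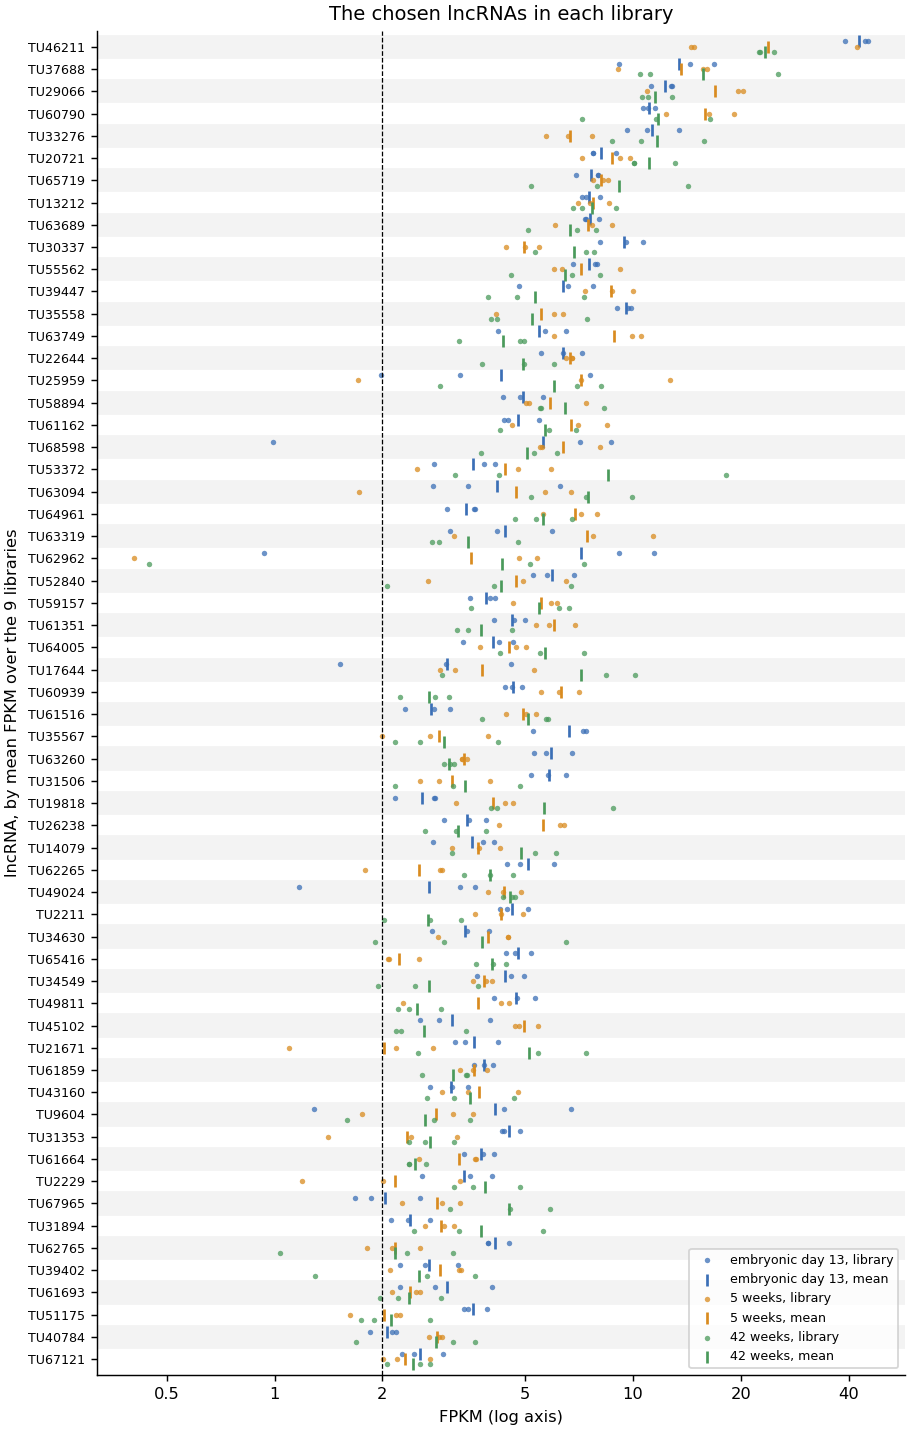
FPKM on a log x axis for each of the 60 chosen lncRNAs, ordered by their mean over the 9 libraries; dots are libraries, vertical ticks are means of 3 libraries, colours are ages and the dashed line is the level minimum of 2 FPKM. The means of 2 ages are up to 2.54-fold apart, for TU21671, and single libraries such as those of TU62962 at 0.405 and 0.447 FPKM can lie far from them.

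The 6 lncRNAs with the smallest difference between ages were TU13212, TU67121, TU65719, TU37688, TU34630 and TU63689, with largest differences of 0.03 to 0.18 on the log2 scale. TU13212 was the flattest, with 8.07, 7.20 and 7.38 FPKM at day 13, 7.04, 8.60 and 7.57 at 5 weeks and 6.82, 8.97 and 7.20 at 42 weeks. Its age means were 7.55 ± 0.462, 7.74 ± 0.790 and 7.66 ± 1.15 FPKM (SD, n = 3 each), and the 9 libraries together ran from 6.82 to 8.97 FPKM. TU67121, the least abundant of the 60, had 2.95, 2.26 and 2.45 FPKM at day 13, 2.01, 2.71 and 2.195 at 5 weeks and 2.05, 2.55 and 2.72 at 42 weeks. Here too the ranges of the 3 ages overlapped. Equal means did not always go with equal libraries. TU65719 had 8.54, 7.74 and 8.24 FPKM at 5 weeks and 6.96, 7.99 and 8.002 at day 13, but 5.18, 7.95 and 14.3 at 42 weeks. TU34630 had 3.45, 2.76 and 3.97 FPKM at day 13, 4.48, 4.48 and 2.86 at 5 weeks and 1.90, 2.96 and 6.49 at 42 weeks. TU63689 had 7.40, 8.06 and 7.34 FPKM at day 13, 8.72, 6.07 and 7.71 at 5 weeks and 6.98, 5.10 and 7.91 at 42 weeks. In TU65719, TU37688 and TU34630 the third 42-week library was the highest of all 9, and in TU65719 and TU34630 the first 42-week library was the lowest.

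Within the limit of 1, some lncRNAs still separated the ages. Between day 13 and 5 weeks, libraries did not overlap for 23 of the 60 (38.3%), against 40.6% of all 4127 lncRNAs; 11 were higher at 5 weeks (13.7% of all lncRNAs were) and 12 lower (26.8% of all). Between 5 and 42 weeks this held for 13 of the 60 against 26.6% of all lncRNAs, with 4 higher at 42 weeks (13.3% of all) and 9 lower (13.2% of all). Between day 13 and 42 weeks it held for 21 of the 60 against 40.3% of all, with 6 higher at 42 weeks (14.2% of all) and 15 lower (26.2% of all). Because these differences were part of the choice, nothing is read from the comparison with the background. Libraries overlapped in all 3 pairs of ages for 27 of the 60 and for 37.6% of all lncRNAs. The median log2 difference over the 60 was 0.06 from day 13 to 5 weeks, -0.04 from 5 to 42 weeks and -0.11 from day 13 to 42 weeks, against -0.06, -0.004 and -0.07 over all lncRNAs.

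Those counts and directions depended on scaling and on single libraries. After quantile normalization the 5-week libraries lay above the embryonic ones for 29 of the 60 and below them for 7 (no overlap for 40.9% of all lncRNAs), and the 42-week libraries lay above the embryonic ones for 18 and below for 5 (41.8% of all). The median difference from day 13 was then 0.44 at 5 weeks and 0.27 at 42 weeks. The balance of directions between day 13 and 42 weeks was thus the opposite of that reported above. With all libraries shifted to the same median the counts were 14 above and 12 below for 5 weeks (41.7% of all), and 8 above and 15 below for 42 weeks (42.3% of all). Between 5 and 42 weeks they were 6 above and 10 below after quantile normalization (29.3% of all), and 5 and 10 after the median shift (28.6% of all). Without the third 42-week library 33 of the 60 did not overlap between day 13 and 42 weeks (55.6% of all lncRNAs) and 20 did not overlap between 5 and 42 weeks (42.5% of all). Without the first 42-week library the latter number was 22 (36.3% of all), with 12 higher and 10 lower at 42 weeks. With fewer libraries, ranges are narrower and overlap less by construction.

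The 3 ages could be ordered by their mean log2 values in 6 ways, and each order was found. The embryo was highest in 23 lncRNAs, the 5-week liver in 20 and the 42-week liver in 17, and the embryo was lowest in 24, the 5-week liver in 13 and the 42-week liver in 23. The means were lower at each later age in 13 and higher at each later age in 14. An order can rest on small gaps: the largest difference was 0.03 for TU13212. For 15 of the 60 it was under the SD within ages. Among the 32 lncRNAs with at least 2 FPKM at each age that exceeded the limit, the embryo was highest in 19 and lowest in 6. The difference between the groups was not tested.

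In 3 of the 60 the libraries separated all 3 ages, against 6.54% of all lncRNAs, and all 3 were among the 4 with the smallest spread within ages. Such a small spread goes with the choice, since the limit of 1 leaves little room for 3 separate ranges. TU63260 had 5.71, 5.29 and 6.77 FPKM at day 13, 3.45, 3.34 and 3.33 at 5 weeks and 3.16, 2.96 and 3.09 at 42 weeks, lower at each later age with the larger step first. TU65416 was lowest at the middle age, with 5.20, 4.42 and 4.68 FPKM at day 13, 2.07, 2.09 and 2.53 at 5 weeks and 4.06, 3.64 and 4.41 at 42 weeks. TU60939 was highest at the middle age, with 4.40, 4.59 and 4.91 FPKM at day 13, 6.24, 5.54 and 7.08 at 5 weeks and 2.24, 2.81 and 3.07 at 42 weeks. The largest differences of these 3 were 0.76, 0.84 and 0.98 on the log2 scale, beside within-age SDs of 0.09, 0.11 and 0.14 (root mean square over the ages, n = 3 each). TU60939 exceeded the limit of 1, at 1.05, both without the second 5-week library and without the third 42-week library. TU61859, the other lncRNA of small spread, had 3.85, 4.06 and 3.60 FPKM at day 13, 3.92, 3.58 and 3.30 at 5 weeks and 2.57, 3.45 and 3.43 at 42 weeks, with the 42-week libraries below the embryonic ones.

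Of the 11 that were higher at 5 weeks than at day 13 without overlap, TU64961 and TU61516 had the largest differences. TU64961 had 3.61, 3.03 and 3.63 FPKM at day 13, 5.61, 7.95 and 7.18 at 5 weeks and 6.78, 4.67 and 5.37 at 42 weeks. For TU61516 the libraries were at 3.10, 2.31 and 2.78 FPKM at day 13, 5.36, 5.04 and 4.43 at 5 weeks and 5.73, 5.78 and 3.80 at 42 weeks. In both, every library after hatching was above every embryonic one. Among the 12 that were lower at 5 weeks without overlap, TU35567 and TU65416 had the largest differences. TU35567 had 7.24, 7.40 and 5.27 FPKM at day 13, 3.94, 2.72 and 1.997 at 5 weeks and 2.55, 2.17 and 4.22 at 42 weeks, so that the later ages overlapped each other and lay below the embryo. Its largest difference passed the limit without the third day 13 library, the first 5-week library or the third 42-week library, at 1.13, 1.18 and 1.17.

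Between 5 and 42 weeks the largest differences without overlap were those of TU65416 and TU33276, higher at 42 weeks, and of TU60939 and TU63749, lower at 42 weeks. TU63749 had 6.49, 5.70 and 4.19 FPKM at day 13, 9.95, 10.6 and 6.01 at 5 weeks and 4.83, 4.96 and 3.27 at 42 weeks, with the 5-week libraries all above the 42-week ones; without the third 5-week library the largest difference was 1.09. Between day 13 and 42 weeks, TU67965 and TU19818 had the largest upward differences among those without overlap. TU67965 had 1.86, 1.68 and 2.54 FPKM at day 13, 2.92, 2.28 and 3.30 at 5 weeks and 3.10, 4.54 and 5.87 at 42 weeks. TU19818 had 2.79, 2.17 and 2.80 FPKM at day 13, 4.41, 4.63 and 3.21 at 5 weeks and 4.17, 4.02 and 8.81 at 42 weeks. In both the 5-week libraries overlapped the 42-week ones, and the third 42-week library was the highest of all. TU35567 and TU46211 had the largest downward differences without overlap between these ages.

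Spread between libraries of an age was not part of the rule, although a large spread at the ages can carry a lncRNA into or out of the window. Over the 60, the embryonic libraries had a median SD of 0.16 in log2(FPKM + 1), the 5-week libraries 0.23 and the 42-week libraries 0.31 (n = 3 each), and 38 of the 60 had their largest SD at 42 weeks, 16 at 5 weeks and 6 at day 13. Without the third 5-week library the 5-week median was 0.13, against 0.13 to 0.15 for day 13 without a library. The 42-week median was 0.22 without the third 42-week library, 0.27 without the first and 0.33 without the second. An SD over 2 libraries tends to have a lower median by construction. Among the 32 lncRNAs of at least 2 FPKM that exceeded the limit the medians were 0.30, 0.31 and 0.42. Features are not replicates, and this difference was not tested. Spread differed little by level within the group: the 20 most abundant, the middle 20 and the 20 least abundant had median within-age SDs of 0.30, 0.28 and 0.26.

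For 15 of the 60 the largest difference between ages was smaller than the within-age SD, and for 29 it was more than 2 times that SD. Over all 9 libraries the highest value was 1.32 to 28.3 times the lowest, with a median of 2.58, and 12 lncRNAs stayed within 2-fold throughout.

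**Figure D3:**
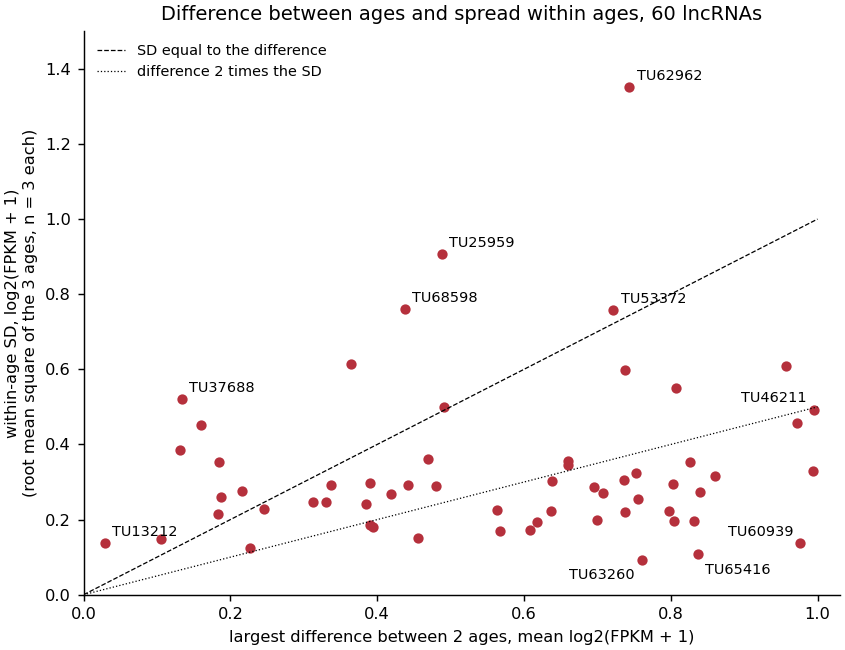
Within-age SD of log2(FPKM + 1) against the largest difference between 2 ages for the 60 chosen lncRNAs; the dashed line marks equality and the dotted line a difference of 2 times the SD. TU62962, with an SD of 1.35, stands far above the others, while TU63260, TU65416 and TU60939 combine differences of 0.76 to 0.98 with SDs of 0.09 to 0.14.

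TU62962 varied most within ages. Its values were 9.14, 0.936 and 11.5 FPKM at day 13, 0.405, 5.39 and 4.80 at 5 weeks and 7.30, 5.15 and 0.447 at 42 weeks. At each age 1 library was under 1 FPKM and the other 2 were at 4.80 FPKM or more, so age means that met the limit covered a 28.3-fold range of libraries. Its within-age SD was 1.35, and it left the group without the second day 13 library (largest difference 1.59), without the second or the third 5-week library (1.13 and 1.06) and without the first 42-week library (1.07). Of the 60, it lost its place under the most omissions. TU25959 followed with an SD of 0.91 and had 1.98, 3.28 and 7.58 FPKM at day 13, 12.7, 7.15 and 1.71 at 5 weeks and 6.998, 8.13 and 2.89 at 42 weeks, with a wide range at each age; its largest difference was 1.14 without the third 5-week library. TU68598 had 0.992, 7.11 and 8.71 FPKM at day 13, 8.09, 5.52 and 5.58 at 5 weeks and 3.77, 6.15 and 5.31 at 42 weeks. Only its first embryonic library was low. In TU53372 the exception was a high library, with 2.78, 3.83 and 4.12 FPKM at day 13, 2.49, 5.91 and 4.79 at 5 weeks and 3.18, 4.24 and 18.2 at 42 weeks, and its largest difference was 1.14 without the first 42-week library.

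In the embryo the FPKM of the 60 summed to 348 ± 9.37 (SD, n = 3 here and below). At 5 weeks the sum was 333 ± 31.7 and at 42 weeks 325 ± 52.3. Similar sums were built in by the rule, which limited the differences between ages. The sum over all 4127 lncRNAs was 3954 ± 231, 2899 ± 177 and 2860 ± 441 FPKM. The share of the 60 was therefore 8.72%, 9.12% and 8.57% in the day 13 libraries, 11.2%, 11.96% and 11.2% at 5 weeks and 11.5%, 11.03% and 11.5% at 42 weeks. Every library after hatching was above every embryonic one in this share, with means of 8.80% ± 0.29, 11.5% ± 0.42 and 11.3% ± 0.28. As the 60 were chosen for similar levels at the 3 ages, a higher share beside a lower total follows from the choice. TU46211 made up 4.46% to 12.8% of the summed FPKM of the 60, lowest in the first and the third 5-week library.

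Single libraries lay high or low for many of the lncRNAs together. In the third 42-week library the median deviation of the 60 from their 42-week mean was 0.20 on the log2 scale, and 38 of the 60 had their highest 42-week value there. The first 42-week library was at -0.14 and held the lowest value of 28. The 32 others with at least 2 FPKM showed 0.19 and -0.20 in these libraries. The median log2 value of all lncRNAs was also highest in the third 42-week library of that age, at 0.53 against 0.38 and 0.42. At day 13 the medians of the 60 were between -0.05 and 0.06. In the second 5-week library the 60 were at 0.13 and the 32 others at -0.10. The part of this shared shift in the spread of each lncRNA was not tested. With all libraries shifted to the same median, the median SD of the 60 at 42 weeks was 0.29, against 0.31 as deposited. After quantile normalization it was 0.34. The same 2 settings gave 0.23 and 0.22 at 5 weeks, against 0.23, and 0.15 and 0.14 at day 13, against 0.16.

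**Figure D4:**
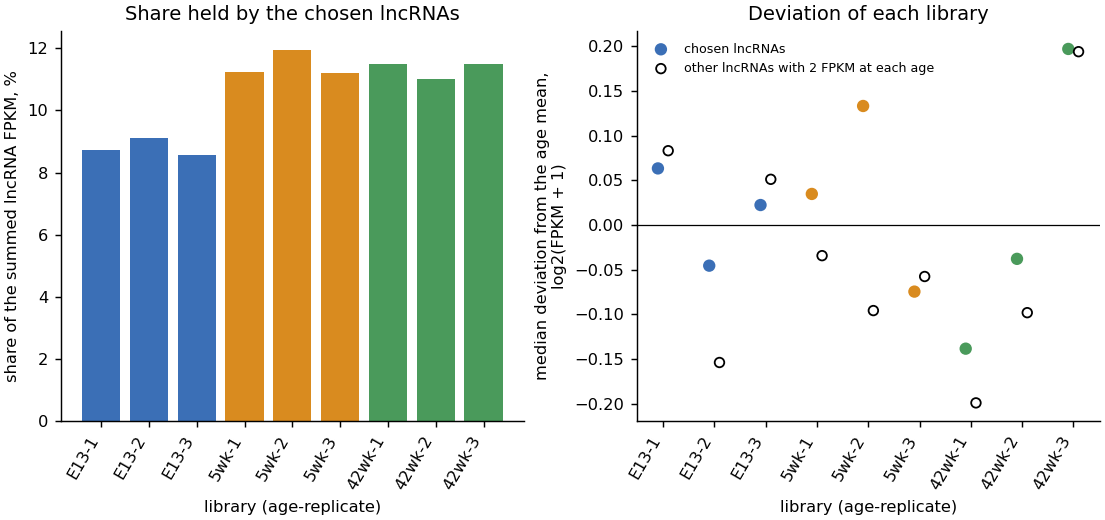
Left, share of the summed lncRNA FPKM held by the 60 chosen lncRNAs in each library, coloured by age. Right, median deviation from the age mean in log2(FPKM + 1) for the 60 (filled) and for the 32 others with at least 2 FPKM at each age (open). The share is 8.57% to 9.12% at day 13 and 11.03% to 11.96% later, and the third 42-week library is high in both sets.

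To read differences between ages in libraries that did not choose, the rule was applied to the libraries of 2 replicate numbers. The 3 libraries of the remaining number, 1 per age, were then read. The range of 3 single libraries also holds the spread between libraries, unlike a difference between age means, so exceeding 1 here is not failing the rule. Each such choice gave its own set, which overlapped the 60 but was not the same. With replicate 1 read, for example, TU30579 was chosen though not one of the 60. TU62962, one of the 60, was then among those that exceeded the limit. The shares below are therefore not shares of the 60. With replicate 1 read, 41 of 58 lncRNAs chosen in this way (70.7%) differed by less than 1 between the highest and lowest of the 3 libraries. With replicate 2 this was 40 of 58 (69.0%), and with replicate 3 it was 46 of 60 (76.7%). Among the lncRNAs that had at least 2 FPKM at each age but exceeded the limit in the choosing libraries, 7 of 36, 8 of 36 and 3 of 34 did so (19.4%, 22.2% and 8.82%). Both sets together, which are all lncRNAs with at least 2 FPKM at each age in the choosing libraries, gave 51.1%, 51.1% and 52.1%. The median range was 0.75, 0.82 and 0.70 for the chosen and 1.44, 1.61 and 1.52 for the others. At least 2 FPKM in all 3 of the read libraries was found for 47, 43 and 49 of the chosen (81.0%, 74.1% and 81.7%). Over all lncRNAs with at least 2 FPKM at each age in the choosing libraries this was 74.5%, 76.6% and 75.5%. Among those that exceeded the limit it was 63.9%, 80.6% and 64.7%. A single library per age leaves no replicate for a test, and the 3 readings share most of their lncRNAs.

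**Figure D5:**
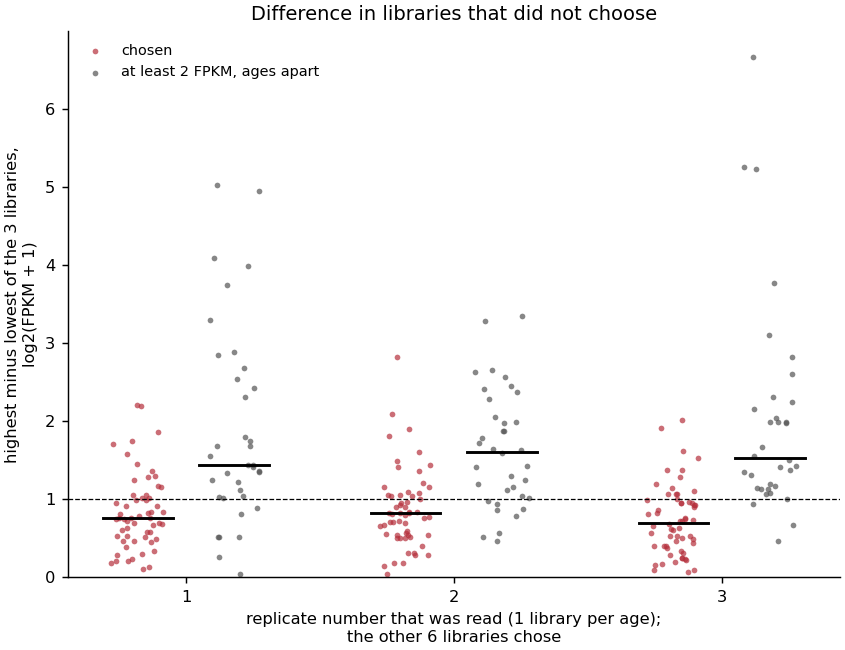
Difference between the highest and lowest of 3 libraries, 1 per age, in log2(FPKM + 1), read in the replicate number on the x axis after the other 6 libraries chose; each dot is a lncRNA, thick bars are medians and the dashed line is the limit of 1. Medians are 0.70 to 0.82 for the chosen (red) and 1.44 to 1.61 for the others (grey). The chosen are those of each set of 6 libraries and are not the same as the 60.

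Some of the 60 were alike across the 9 libraries. The closest pairs were TU39447 with TU61351 (Pearson's r = 0.94), TU31506 with TU62765 (0.94), TU30337 with TU62265 (0.94), TU35558 with TU35567 (0.93) and TU61351 with TU45102 (0.91). TU61351 had 5.003, 4.10 and 4.67 FPKM at day 13, 5.37, 6.92 and 5.84 at 5 weeks and 3.47, 3.23 and 4.60 at 42 weeks. TU45102 had 3.99, 2.55 and 2.87 FPKM at day 13, 4.81, 4.68 and 5.44 at 5 weeks and 2.25, 2.18 and 3.43 at 42 weeks. Like TU39447 these were highest at 5 weeks and lowest at 42 weeks. TU35558 had 9.005, 9.70 and 9.91 FPKM at day 13, 6.40, 6.03 and 4.16 at 5 weeks and 4.02, 4.17 and 7.45 at 42 weeks, with the embryonic libraries above all later ones as in TU35567; its largest difference was 1.05 without the third 42-week library. TU31506 had 6.51, 5.80 and 5.20 FPKM at day 13, 2.87, 3.99 and 2.54 at 5 weeks and 2.17, 3.15 and 4.85 at 42 weeks. TU62765 had 3.95, 3.94 and 4.52 FPKM at day 13, 2.13, 2.55 and 1.81 at 5 weeks and 1.04, 2.34 and 3.14 at 42 weeks. Both were highest in the embryo, as was TU62265, with 4.47, 6.02 and 4.83 FPKM at day 13, 2.89, 2.93 and 1.79 at 5 weeks and 3.38, 4.64 and 3.99 at 42 weeks. Over all 1770 pairs the median r was 0.07, with 5th and 95th percentiles of -0.61 and 0.72. Because the rule kept differences between ages small, these values cannot decide whether the group shares a course. These correlations are descriptions over 9 libraries that share their scaling.

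With the mean of each age taken away, the closest pairs were TU13212 with TU58894 (r = 0.96), TU64005 with TU2211 (0.95), TU62765 with TU40784 (0.95), TU39447 with TU34549 (0.94) and TU19818 with TU34630 (0.94). The median over all pairs was then 0.16. TU58894 had 5.63, 4.33 and 4.83 FPKM at day 13, 5.04, 7.38 and 5.14 at 5 weeks and 5.53, 8.31 and 5.49 at 42 weeks. Its second library was the highest at 5 and at 42 weeks, as in TU13212. TU64005 had age means of 4.07 ± 0.643, 4.50 ± 0.671 and 5.70 ± 1.53 FPKM (SD, n = 3 each), while those of TU2211 were 4.60 ± 0.436, 4.29 ± 0.652 and 2.68 ± 0.651 FPKM. The former was highest and the latter lowest at 42 weeks. TU40784 had 2.05 ± 0.183, 2.83 ± 0.125 and 2.82 ± 1.02 FPKM at the 3 ages, and TU34549 had 4.40 ± 0.660, 3.84 ± 0.231 and 2.71 ± 0.898 FPKM.

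The 19 lncRNAs not yet described had means of 2.59 to 5.99 FPKM over the 9 libraries and largest differences of 0.18 to 0.96 on the log2 scale. TU52840, TU49811, TU9604, TU61664 and TU61693 had means that were lower at each later age, by 0.25 to 0.71 in all. TU63094, TU17644, TU14079, TU49024 and TU31894 had means that were higher at each later age, by 0.34 to 0.96 in all. TU22644, TU63319, TU26238 and TU39402 were highest at 5 weeks and lowest at 42 weeks, while TU61162, TU59157 and TU43160 were highest at 5 weeks and lowest in the embryo. TU31353 was lowest at 5 weeks and highest in the embryo, and TU2229 was lowest at 5 weeks and highest at 42 weeks. Among these, TU17644 had the largest difference, from 3.03 ± 1.52 FPKM at day 13 through 3.80 ± 1.31 at 5 weeks to 7.15 ± 3.75 at 42 weeks (SD, n = 3 each), and its libraries overlapped in every pair of ages. Without the third day 13 library its largest difference was 1.23, and without the first 42-week library 1.42. TU51175, at the level minimum, had 3.58 ± 0.290, 2.01 ± 0.335 and 2.11 ± 0.521 FPKM.

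Membership held without any single library for 41 of the 60. Of the other 19, some exceeded the difference limit (13 lncRNAs) and some were under the level minimum (8 lncRNAs) once a library was left out, with TU21671 and TU67965 doing both. The same rule applied to protein-coding genes took 4162 of the 7726 with at least 2 FPKM at each age, or 53.9% against 65.2% for lncRNAs. Those genes had a median level of 11.9 FPKM against 5.21 for the 92 lncRNAs, and the log2(FPKM + 1) scale narrows differences more at lower levels. By mean FPKM with no offset the shares were 47.4% and 51.1%. With the log2 values of all libraries shifted to the same median, separately for each kind of transcript, they were 67.0% and 67.7% (63 of 93 lncRNAs). After quantile normalization, also separate, they were 67.6% and 66.7% (66 of 99 lncRNAs). Only in this last setting was the share of lncRNAs the lower one, and by little. The difference between the 2 kinds of transcript was not tested.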

How the data were processed

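Liver RNA of 9 samples, 3 per age, was sequenced. The labels' protocols name TRIzol extraction of total RNA and an Illumina TruSeq kit. The submitters' processing notes list HISAT, StringTie (1.3.3), DESeq2 and Cufflinks (2.2.1) without saying what each did, and a build or annotation is not named there. The authors deposited log2 values of FPKM for 4127 lncRNAs and 13949 protein-coding genes. Undoing log2(FPKM + 1) put all 37121 lncRNA values under 50 FPKM on whole multiples of 0.000001 FPKM (to within 0.05 of such a step), with a smallest value of 0.000001, so the offset is 1. No value of the lncRNA table is 0, so no lncRNA with a value of exactly 0 in some library is among them. Values down to 0.000001 FPKM are, so a listed lncRNA can be nearly absent from a library. Read depth is unknown, since no counts are given, so error is given as the SD over 3 libraries. FPKM is relative to each library. The median log2(FPKM + 1) of all protein-coding genes was 2.68 to 2.83 in the day 13 libraries, 2.20 to 2.39 at 5 weeks and 1.97 to 2.42 at 42 weeks. Against that median, an unchanged FPKM lies higher at the later ages.

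Columns were matched to samples by age and replicate number, with 0 columns left over. Means and SDs were computed with Python 3.11.15, pandas 2.3.3 and numpy 2.4.6, and the selection was checked on simulated data. The lncRNAs and all lists were chosen with earlier results of these data known. Named lncRNAs are the 12 most abundant, the 6 flattest, those nearest the limits, the 4 of largest and the 4 of smallest spread, the 2 largest differences per direction and pair of ages without overlap, the 5 closest pairs on each scale, and the 2 that lost membership most often. In that last list TU35567 was tied with TU21671 and TU51175, each lost under 3 omissions. Alternatives changed the level minimum, the difference limit, the offset, the scaling and the libraries. Liver and other cell markers were listed by symbol and could not be matched to the identifiers. No test was run, as the rule used all 3 ages.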

Additional observations from a re-analysis of the deposited data

How the results depend on the processing

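The number of lncRNAs that meet the rule was 190 with a minimum of 1 FPKM, 13 with 5 FPKM, 3839 with no minimum and 27 with a difference limit of 0.5. With 2 FPKM in every library it was 40, with an offset of 0.1 FPKM 49, and by a ratio of mean FPKM under 2, which changes both the offset and the averaging, 47. Shifting the log2 values of all libraries to the same median gave 63, of which 57 were among the 60. Quantile normalization gave 66, of which 50 were. Leaving out 1 library gave 54 to 64. Libraries that do not overlap between day 13 and 5 weeks were found for 36 of the 60 after quantile normalization (40.9% of all lncRNAs) and for 28 to 31 without a library (48.3% to 50.7% of all). Without a library the numbers were 15 to 22 between 5 and 42 weeks (33.7% to 42.5% of all) and 23 to 33 between day 13 and 42 weeks (46.9% to 55.6% of all). The share of the 60 in the summed FPKM at 42 weeks was 12.4% after quantile normalization. The median SD without a library was 0.13 to 0.22 at 5 weeks and 0.22 to 0.33 at 42 weeks. An SD over 2 libraries tends to have a lower median by construction. The 97 alternative values share libraries and partly repeat each other, so their tally is no measure of how firm the results are. Of the 97, 87 were taken as the same. For counts, SDs and shares read in libraries that did not choose, this meant within 1.5 times the reported value. For shares of the summed FPKM it meant within 1 SD. The other 10 include the numbers with minimums of 1 and 5 FPKM, no minimum and a limit of 0.5. Those follow from changing the rule itself. Some of the rest are counts without overlap or an SD with a library left out. With fewer libraries, ranges are narrower and SDs tend to be lower by construction. How much of the change this makes up was not tested, nor was the cause of those that moved with scaling. The alternatives for SDs and protein-coding genes were chosen after seeing the data. No paired analysis was made, because the labels do not link replicates across ages and no test was run. Unknown depth limits how far low FPKM values can be trusted.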

Other observations

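TU62962 was followed further after its values had been seen. Over the 9 libraries the lncRNAs most like it were TU15795 (Pearson's r = 0.84) and TU47967 (0.82), and the protein-coding genes most like it were ENSGALG00000014281 (0.82) and ENSGALG00000001181 (0.82). TU15795 had 0.460, 0.211 and 0.763 FPKM at day 13, 0.215, 0.560 and 0.512 at 5 weeks and 0.277, 0.466 and 0.0744 at 42 weeks, and like TU62962 it was lowest in the second day 13, the first 5-week and the third 42-week library of their ages. ENSGALG00000014281 was lowest in the same libraries of each age but ran only from 21.1 to 32.2 FPKM over all 9. These are the closest of all other lncRNAs and of 13949 protein-coding genes, picked for their likeness, so the correlations are a description.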
